A study of Mus musculus with 6 samples.

Results

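Regulators of G protein signalling (RGS genes) were measured as RNA in capsules of the mouse lens, which carry the lens epithelial cells that remain when the fiber cell mass is removed as in cataract surgery. The genes described are the 10 listed Rgs symbols Rgs1, Rgs2, Rgs3, Rgs4, Rgs5, Rgs6, Rgs10, Rgs12, Rgs16 and Rgs19. All 10 were found by Ensembl identifier among the 56940 genes of the count files, and all 10 passed the filter on low counts that left 15407 genes. The list was selected on the counts of these same libraries at 72 h and 0 h, so differences of its genes between 72 h and 0 h are given as a description, with no p-value. The further gene lists were also chosen with earlier results of these data known, and mostly their genes with the smallest p are named. Adjusted p-values printed for those genes are therefore descriptive too.

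One group was taken 72 h after surgery and the other at 0 h, directly after the fiber cells were removed, with 3 libraries in each and 5 pooled capsules in each library. All mice were C57BL/6 and labelled wildtype. RUNX_Cre_N appears in the description of all 6 samples, and the labels do not explain it. The second eye of each mouse was operated on 72 h after the first, but which mice went into which pool was not stated. The groups may therefore hold eyes of the same mice, and a 0 h eye may come from a mouse already operated on in its other eye. The test treated the pools as independent, and its p-values measure the spread between pools.

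RGS proteins bind active G protein alpha subunits and speed up their GTP hydrolysis, which shortens the signal of receptors coupled to Gi or Gq. Members of the R4 subfamily (here Rgs1, Rgs2, Rgs3, Rgs4, Rgs5 and Rgs16) consist of little more than the RGS domain, apart from long forms of Rgs3. The R7 member Rgs6 works as a pair with the G beta subunit encoded by Gnb5, the R12 member Rgs12 has further signalling domains while Rgs10 is small, and Rgs19 belongs to the RZ subfamily. Many R4 genes are themselves switched on or off by the stimuli whose signal they limit.

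The 72 h libraries held 8453450 to 8945397 reads counted in genes, and the 0 h libraries 11338820 to 12432688. Markers of lens epithelium were present in every library, at summed levels of 1001 to 1238 CPM at 72 h and 1768 to 1789 CPM at 0 h (CPM being read counts scaled to library size and composition). Foxe3, a transcription factor of lens epithelium, was among them, with 52.8 to 62.04 CPM at 72 h and 240.7 to 258 CPM at 0 h. Of the 5 markers, 3 were called lower at 72 h by the test described below, and 2, Pax6 and Six3, were not. The levels of Pax6 and Six3 overlapped between the groups (means of 643 and 145 CPM at 72 h, 684 and 165 CPM at 0 h). Lens fiber markers summed to 1518 to 3835 CPM at 72 h and 21384 to 24949 CPM at 0 h. The library 72 h replicate 3 stood apart by its keratins: markers of surface epithelium summed to 3480 CPM there, against 5.79 and 74.7 CPM in 72 h replicates 1 and 2 and 18.7 to 43.1 CPM at 0 h. Fewer cells of a type and less RNA per cell cannot be told apart in such bulk samples.

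The 10 genes did not move together. By edgeR's quasi-likelihood fit of all genes, with Benjamini-Hochberg adjustment and a threshold of 0.05, 3 lay on the higher side (Rgs10, Rgs12 and Rgs16), 1 on the lower side (Rgs4) and 6 did not pass. Of all genes tested, 38.5% passed, 21.0% higher and 17.5% lower. Levels of the groups did not overlap for 7 of the 10 genes, against 53.5% of all tested genes. Among these 7, Rgs1 passed the filter on low counts only through the 72 h group and Rgs4 only through the 0 h group. The median log2 change was 0.72 over the 10 genes and −0.02 over all tested genes. Without 72 h replicate 3, 4 genes lay on the higher side and 2 on the lower, with Rgs19 and Rgs6 added. Calls over the whole table grew as well in that setting, to 3646 higher and 3265 lower of 16621 tested genes, against 3230 and 2700 of 15407. Leaving out any 1 library gave 2511 to 3646 genes higher and 1877 to 3265 lower over the whole table.

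The widest differences were those of Rgs4 and Rgs16, both small R4 members that act on Gi and Gq alpha subunits, and they ran in opposite directions. Rgs4 (ENSMUSG00000038530) had 2, 0 and 0 counts in 72 h replicates 1, 2 and 3, and 477, 336 and 494 counts in 0 h replicates 1, 2 and 3. Its levels were 0.232, 0 and 0 CPM at 72 h and 41.3, 28.4 and 39.0 CPM at 0 h. Every 0 h library held ample counts and the 72 h libraries had almost none. The pooled level was 462-fold lower at 72 h (95% counting interval of the ratio 128 to 3817, counting error only). Both 72 h counts lay in replicate 1, and without that library Rgs4 was at least 204-fold lower, against a floor of 3 counts over the group. Lens fiber markers (9 of 9 called lower) and photoreceptor markers (9 of 10 called lower; 62.6 to 162 CPM summed at 72 h and 634 to 1557 CPM at 0 h) were lower in the same libraries, as were markers of other retinal neurons (46.0 to 76.1 CPM at 72 h and 188 to 215 CPM at 0 h, 2 of 6 called lower). At 72 h the fiber marker Dnase2b was at 0. The part of these cells in the level of Rgs4 was not tested.

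Rgs16 (ENSMUSG00000026475) had 704, 368 and 434 counts in 72 h replicates 1, 2 and 3, and 30, 38 and 35 counts in 0 h replicates 1, 2 and 3. In CPM this was 81.5, 42.5 and 53.1 at 72 h and 2.59, 3.22 and 2.76 at 0 h. The groups lay far apart, and the 72 h libraries varied among themselves while the 0 h libraries were alike. The mean was 59.03 ± 20.2 CPM at 72 h and 2.86 ± 0.322 CPM at 0 h (SD, n = 3 each), 20.7-fold higher at 72 h, with a fitted log2 change of 4.36 ± 0.28 (SE). Without any one library that change lay between 4.05 and 4.55. An annotated antisense gene, Gm28513, shares 236 exonic bases with Rgs16 in GENCODE M21, so reads of that stretch are uncertain without a stated strand setting. Markers of macrophages and monocytes, summed, were at 218 to 394 CPM in 72 h libraries and 32.1 to 50.3 CPM in 0 h libraries, and their part in the levels of Rgs16 and Rgs12 was not tested.

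**Figure D1:**
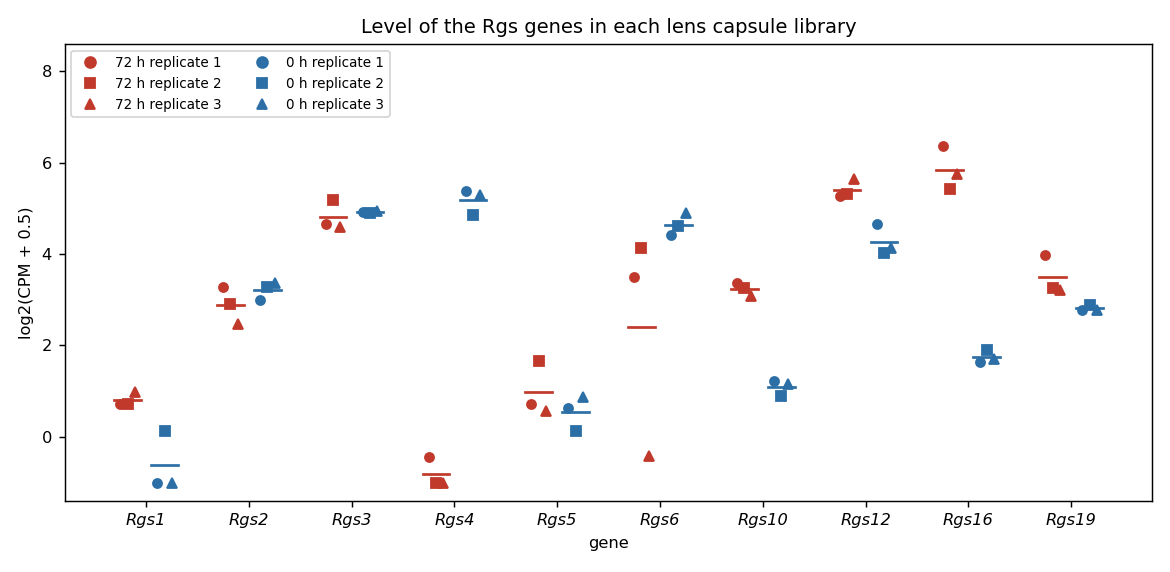
Level of each listed gene in each library, as log2(CPM + 0.5), with 72 h libraries (red) left of 0 h libraries (blue), a symbol for each replicate and a line at the group's mean. Rgs16 and Rgs10 are higher in all 3 libraries at 72 h, Rgs4 is near the bottom of the axis at 72 h, and Rgs6 has 1 low library at 72 h, replicate 3.

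The promoter windows of these genes are shown because Rgs4 and Rgs16 moved furthest and in opposite directions, and because Rgs2, of the same subfamily, moved little. Each window runs from 250 bases before the annotated start to 50 bases after it, from RefSeq on GRCm38.p6 (the deposited counts were made on GRCm39), 5′ to 3′ along the gene. Capitals mark the half-site of the cAMP response element (TGACG), the AP-1 element TGANTCA and the TATA box TATAAA, searched on both strands and without overlap between them in these windows.
Rgs4, chr1:169747593-169747892, minus strand: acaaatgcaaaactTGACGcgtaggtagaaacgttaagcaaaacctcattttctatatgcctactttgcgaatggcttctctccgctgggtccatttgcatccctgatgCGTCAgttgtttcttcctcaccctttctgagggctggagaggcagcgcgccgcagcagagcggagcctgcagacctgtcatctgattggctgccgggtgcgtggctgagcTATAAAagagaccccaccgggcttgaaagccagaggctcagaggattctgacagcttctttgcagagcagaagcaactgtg
Rgs16, chr1:153740103-153740402, plus strand: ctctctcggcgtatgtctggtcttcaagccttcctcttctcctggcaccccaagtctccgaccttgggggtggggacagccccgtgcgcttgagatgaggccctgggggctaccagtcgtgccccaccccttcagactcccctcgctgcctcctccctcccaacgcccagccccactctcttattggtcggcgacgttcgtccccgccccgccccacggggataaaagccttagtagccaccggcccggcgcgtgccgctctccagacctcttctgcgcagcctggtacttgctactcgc
Rgs2, chr1:144004100-144004399, minus strand: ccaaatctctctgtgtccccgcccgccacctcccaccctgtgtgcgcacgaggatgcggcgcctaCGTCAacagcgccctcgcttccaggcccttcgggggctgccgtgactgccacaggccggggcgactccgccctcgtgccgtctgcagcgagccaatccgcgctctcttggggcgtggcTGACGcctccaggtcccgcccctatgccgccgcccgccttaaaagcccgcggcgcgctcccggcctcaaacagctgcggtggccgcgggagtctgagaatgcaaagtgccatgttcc
Rgs4 holds TGACG in both directions, 236 and 141 bases upstream of the start, and TATAAA 31 bases upstream. Rgs2 holds TGACG in both directions too, 67 and 185 bases upstream, while the window of Rgs16 holds none of the 3 motifs. Among the listed genes whose windows are not shown, Rgs12, higher at 72 h, holds TGACG 82 and TGANTCA 22 bases upstream in a window. Rgs3 holds TATAAA 100 and 177 bases upstream in separate windows. The windows of Rgs5, Rgs6, Rgs10 and Rgs19 hold none of the motifs. Of 32851 promoter windows of the same length, 20.8% hold TGACG, 7.81% TGANTCA and 13.6% TATAAA. Windows were found for 9 of the 10 genes, and Rgs1 has none in the table.

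The other 4 R4 members were level or low. Rgs2 (ENSMUSG00000026360), which prefers Gq among alpha subunits, was at 9.15, 7.05 and 5.01 CPM in 72 h replicates 1, 2 and 3, and at 7.44, 9.14 and 9.86 CPM in 0 h replicates 1, 2 and 3. These ranges overlapped, and the log2 change was −0.32 ± 0.34 (SE). Rgs3 (ENSMUSG00000059810) was at 24.7, 35.9 and 23.5 CPM at 72 h and at 29.8, 29.5 and 30.4 CPM at 0 h. Its groups overlapped too, with a log2 change of −0.09 ± 0.19, and the 72 h libraries spread more widely (28.02 ± 6.87 CPM at 72 h and 29.9 ± 0.428 CPM at 0 h, SD, n = 3 each). The counts do not separate the short form of Rgs3 from the long forms with a PDZ domain.

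Rgs5 (ENSMUSG00000026678), known as a marker of pericytes, was low in every library. It stood at 1.16, 2.66 and 0.978 CPM in 72 h replicates 1, 2 and 3, and at 1.04, 0.593 and 1.34 CPM in 0 h replicates 1, 2 and 3. The groups overlapped (log2 change 0.68 ± 0.74, SE; 0.10 without 72 h replicate 2). The 8 markers of pericytes and smooth muscle summed to 162 to 200 CPM at 72 h and 205 to 220 CPM at 0 h, with 1 called higher and 2 lower. Pdgfrb alone gave 79.7 to 104.6 CPM at 72 h and 183 to 196 CPM at 0 h, whereas the median log2 change over the 6 tested markers was 0.67. Of the defining genes of pericytes, Higd1b had 0 counts in both groups and Kcnj8 reached at most 0.339 CPM.

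Rgs1 (ENSMUSG00000026358), known from activated lymphocytes and other leukocytes, had 10, 10 and 12 counts at 72 h and 0, 7 and 0 counts at 0 h. The groups did not overlap, and the mean was 1.26 ± 0.180 CPM at 72 h and 0.198 ± 0.342 CPM at 0 h (SD, n = 3 each). Rgs1 passed the filter on low counts only through the 72 h group, in which it was high. Its log2 change of 2.61 ± 1.23 (SE) rests on few counts and turned on 0 h replicate 2, without which Rgs1 was at least 10.06-fold higher at 72 h. Lymphocyte markers summed to 0.693 to 5.01 CPM at 72 h and 0.519 to 0.847 CPM at 0 h, and 5 of the 13 had 0 counts at 72 h and 8 at 0 h, with Cd3d and Ms4a1 at 0 in both groups. Of the 13 macrophage and monocyte markers 11 were called higher, and their part in the level of Rgs1 was not tested.

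Both R12 members were higher at 72 h. Rgs10 (ENSMUSG00000030844), a small RGS protein known from microglia and other myeloid cells, was at 9.84, 9.13 and 7.95 CPM in 72 h replicates 1, 2 and 3, and at 1.82, 1.35 and 1.74 CPM in 0 h replicates 1, 2 and 3. All 72 h libraries lay well above all 0 h libraries, a 5.49-fold difference of means with a log2 change of 2.45 ± 0.39 (SE). The macrophage and monocyte markers, none of which was at 0 in either group, were higher in the same libraries, with summed CPM of 309, 394 and 218 in 72 h replicates 1, 2 and 3. Their part in the level of Rgs10 was not tested. Neutrophil markers were higher in these libraries too, with summed levels of 24.4 to 165 CPM at 72 h and 0.931 to 2.45 CPM at 0 h, and 2 of the 3 tested were called higher. Of the 10, Ly6g, Mpo, Elane and Ngp had 0 counts in both groups, while Csf3r averaged 23.2 ± 5.94 CPM at 72 h and 1.08 ± 0.249 CPM at 0 h (SD, n = 3 each). The part of neutrophils was not tested either.

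Rgs12 (ENSMUSG00000029101), which carries PDZ, Ras-binding and GoLoco regions beside its RGS domain, was at 38.1, 39.3 and 49.4 CPM at 72 h and at 24.8, 15.8 and 17.04 CPM at 0 h. The groups did not overlap, and the mean was 2.20-fold higher at 72 h (log2 change 1.14 ± 0.21, SE). An annotated antisense gene, Gm43791, shares 467 exonic bases with Rgs12. The RZ member Rgs19 (ENSMUSG00000002458), also called GAIP, was at 15.4, 9.13 and 8.80 CPM at 72 h and at 6.40, 6.94 and 6.31 CPM at 0 h. Each 72 h library lay above each 0 h library, but replicate 1 carried much of the difference: the log2 change was 0.76 ± 0.32 (SE) with it and 0.45 without it.

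Rgs6 (ENSMUSG00000021219), of the R7 subfamily, was the member most uneven among replicates. It had 94, 148 and 2 counts in 72 h replicates 1, 2 and 3, and 241, 282 and 371 counts in 0 h replicates 1, 2 and 3. The levels were 10.9, 17.1 and 0.245 CPM at 72 h and 20.8, 23.9 and 29.3 CPM at 0 h, so the groups did not overlap. Replicate 3 at 72 h, the library with the high keratin level, was the low one. The log2 change was −1.39 ± 1.05 (SE) with that library and −0.81 without it. The 6 surface epithelium markers were all detected in both groups. Their part in the level of Rgs6, and that of photoreceptors and lens fibers, was not tested. An antisense gene, Gm29530, shares 77 exonic bases with Rgs6.

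**Figure D2:**
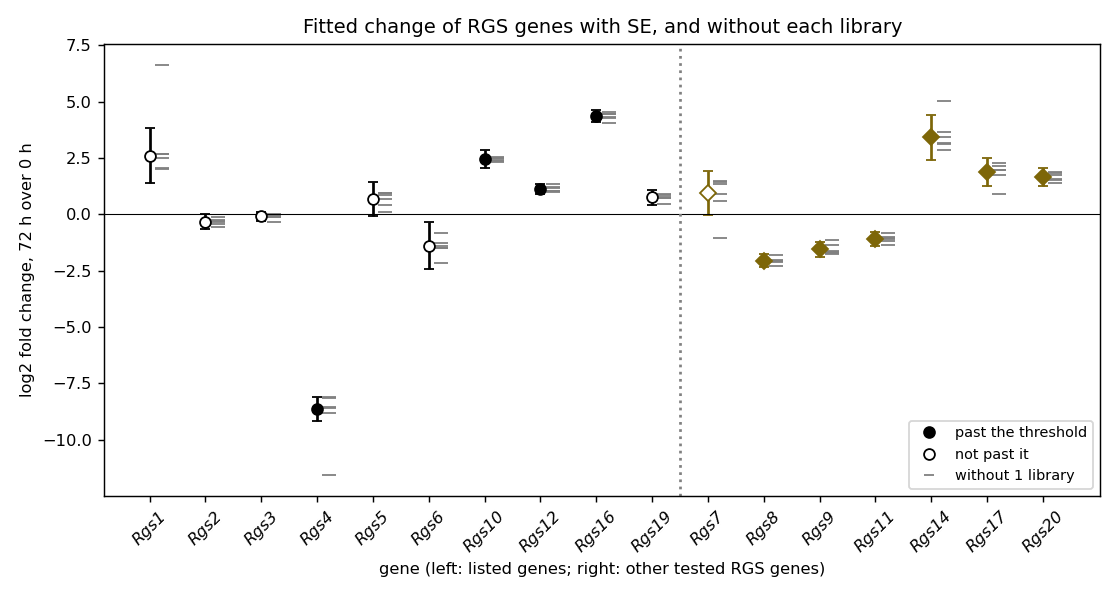
Fitted log2 fold change, 72 h over 0 h, of the 10 listed genes (circles, left) and of the 7 other RGS genes with enough counts (diamonds, right), with SE as bars, and the value without each single library as grey ticks. Rgs4 and Rgs16 lie at the extremes, among the listed genes Rgs1 and Rgs4 have 1 tick far from the rest, and filled symbols mark genes past the threshold. The fitted value of Rgs4 depends on the prior count, since only 2 counts remained at 72 h.

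Per kilobase of exon, the order of the genes differed between the groups. Rgs16 led at 72 h with 25.2 ± 8.62 CPM per kb (SD, n = 3), followed by Rgs10 at 5.24 ± 0.558, Rgs19 at 4.98 ± 1.67 and Rgs12 at 4.98 ± 0.733 CPM per kb. Those 3 overlapped one another, and all lay below Rgs16 in every library. Then came Rgs3 (2.59 ± 0.636 CPM per kb), Rgs2 (1.95 ± 0.570), Rgs6 (0.939 ± 0.850) and Rgs5 (0.351 ± 0.203), each overlapping the next, and then Rgs1 (0.181 ± 0.0258) and Rgs4 (0.0249 ± 0.0431). Rgs1 and Rgs4 did not overlap each other, but the range of Rgs6 (0.0244 to 1.71 CPM per kb) reached into both, because of its low value in 72 h replicate 3.

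At 0 h it was Rgs4 that led, with 11.7 ± 2.20 CPM per kb (SD, n = 3), above the next gene, Rgs19 (2.94 ± 0.153), in every library. Rgs3 (2.77 ± 0.0396 CPM per kb), Rgs6 (2.46 ± 0.426), Rgs2 (2.43 ± 0.343) and Rgs12 (2.27 ± 0.575) followed with overlapping ranges. Below them and without overlap lay Rgs16 (1.22 ± 0.138 CPM per kb), Rgs10 (0.956 ± 0.144), Rgs5 (0.218 ± 0.0828) and Rgs1 (0.0284 ± 0.0493). Lengths are all annotated exons of a gene merged in GENCODE M21, and which forms were present was not measured, so a gene whose main form is much shorter than its merged exons is set too low on this scale.

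Summed over the 21 genes of the RGS family, the level was 55.6 ± 11.6 CPM per kb at 72 h and 41.0 ± 4.22 CPM per kb at 0 h (SD, n = 3 each). Rgs16 made up 44.6% ± 6.00 of that sum at 72 h and 3.02% ± 0.611 at 0 h, whereas Rgs4 made up 0.0362% ± 0.0626 at 72 h and 28.4% ± 3.80 at 0 h. In the R4 subfamily the sum over 10 genes was 31.08 ± 8.49 CPM per kb at 72 h and 21.2 ± 2.01 CPM per kb at 0 h. Leaving out Rgs4 and Rgs16, it was 5.82 ± 1.22 at 72 h and 8.30 ± 0.689 at 0 h. The R12 sum was 10.95 ± 0.435 CPM per kb at 72 h and 3.29 ± 0.617 at 0 h, and the RZ sum 8.19 ± 1.83 at 72 h and 3.90 ± 0.386 at 0 h. The R7 sum was 5.38 ± 1.08 CPM per kb at 72 h and 12.4 ± 2.66 at 0 h.

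**Figure D3:**
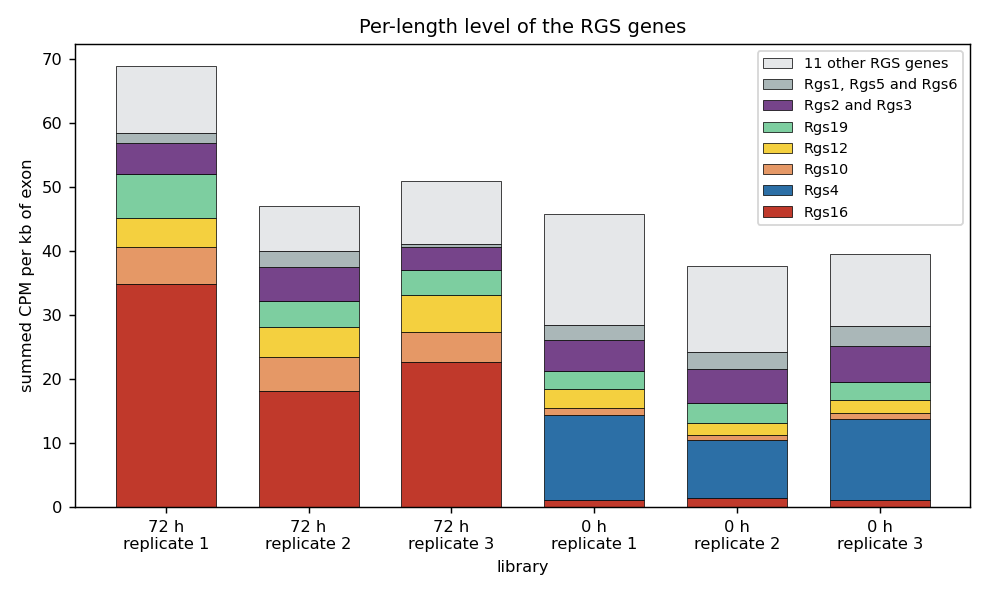
Summed level per kb of exon of the RGS genes in each library, stacked from 0, with 72 h libraries on the left and 0 h libraries on the right. The red Rgs16 block is the largest in each 72 h bar, the blue Rgs4 block is the largest of the listed genes in each 0 h bar, and the 11 other RGS genes are shown together in grey.

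Of 11 other RGS genes, 7 had enough counts for a test, of which 3 rose, 3 fell and 1 did not pass, with a median log2 change of 0.95. The share of all tested genes was 21.0% called higher and 17.5% called lower. Rgs8, a neuronal R4 member, fell to 5.23 ± 1.71 CPM at 72 h, against 21.7 ± 0.710 CPM at 0 h (SD, n = 3 each; log2 change −2.05 ± 0.29, edgeR adjusted p = 0.00042). The RZ member Rgs20 rose to 9.81 ± 2.62 CPM at 72 h, against 3.09 ± 1.05 CPM at 0 h (log2 change 1.67 ± 0.42, adjusted p = 0.01 by edgeR). Rgs14, an R12 member, had 35, 18 and 26 counts in 72 h replicates 1, 2 and 3, and 0, 8 and 2 counts in 0 h replicates 1, 2 and 3. It passed the filter on low counts only through the 72 h group, so its place among the 3 says little, and its call was lost without 72 h replicate 1, 0 h replicate 1 or 0 h replicate 3. The call of Rgs17, an RZ member (log2 change 1.90 ± 0.63, edgeR adjusted p = 0.036), was lost with limma voom (adjusted p = 0.0799) and when 72 h replicate 1 was left out (edgeR adjusted p = 0.252, log2 change 0.89) or one of the 0 h libraries (0.0979 to 0.127). Without 72 h replicate 1, 0 h replicate 1 or 0 h replicate 3, 1 of the other RGS genes rose. In the same libraries markers of other retinal neurons were lower beside Rgs8 and macrophage markers higher beside Rgs14 and Rgs20, and their part was not tested. Rgs21 had 0 counts in all libraries, which allows up to 0.118 CPM at 72 h and 0.0832 CPM at 0 h.

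Rgs9, the R7 member that ends the light response of photoreceptors, fell to 11.7, 7.62 and 11.9 CPM in 72 h replicates 1, 2 and 3, against 47.0, 24.3 and 20.4 CPM in 0 h replicates 1, 2 and 3 (log2 change −1.55 ± 0.34, edgeR adjusted p = 0.005). Rgs11, another R7 member, fell by 1.08 ± 0.31 on the log2 scale (edgeR adjusted p = 0.021; 0.0855 without 0 h replicate 1 and 0.0751 without 0 h replicate 2). The 10 photoreceptor markers summed to 81.1, 62.6 and 162 CPM in the 72 h replicates and to 1557, 634 and 788 CPM in the 0 h replicates, 9 of them called lower and none at 0. At 0 h both Rgs9 and this sum were highest in replicate 1, but between replicates 2 and 3 their order differed. At 72 h, Rgs9 was nearly equal in replicates 1 and 3, where the sums were 81.1 and 162 CPM. The part of photoreceptors in the levels of Rgs9 and Rgs11 was not tested.

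Neighbouring RGS genes differed in their changes. In the gene order of RefSeq on chromosome 1, no other protein-coding gene lies between Rgs8 and Rgs16, and none between Rgs5 and Rgs4. Rgs16 was 20.7-fold higher at 72 h while Rgs8 had a log2 change of −2.05, and Rgs4 was 462-fold lower while the levels of Rgs5 overlapped between the groups. Rgs2, Rgs13, Rgs1, Rgs21 and Rgs18 also follow one another without another protein-coding gene, and all but Rgs2 had few counts. Over the group, Rgs13 had 2 counts at 72 h and 35 at 0 h, and Rgs18, a gene of platelets, 8 counts at 72 h and 2 at 0 h. Platelet and megakaryocyte markers summed to 17.6 to 42.4 CPM at 72 h and 2.92 to 5.54 CPM at 0 h, with Gp6 and Gp9 at 0 in both groups, and their part in the level of Rgs18 was not tested.

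**Figure D4:**
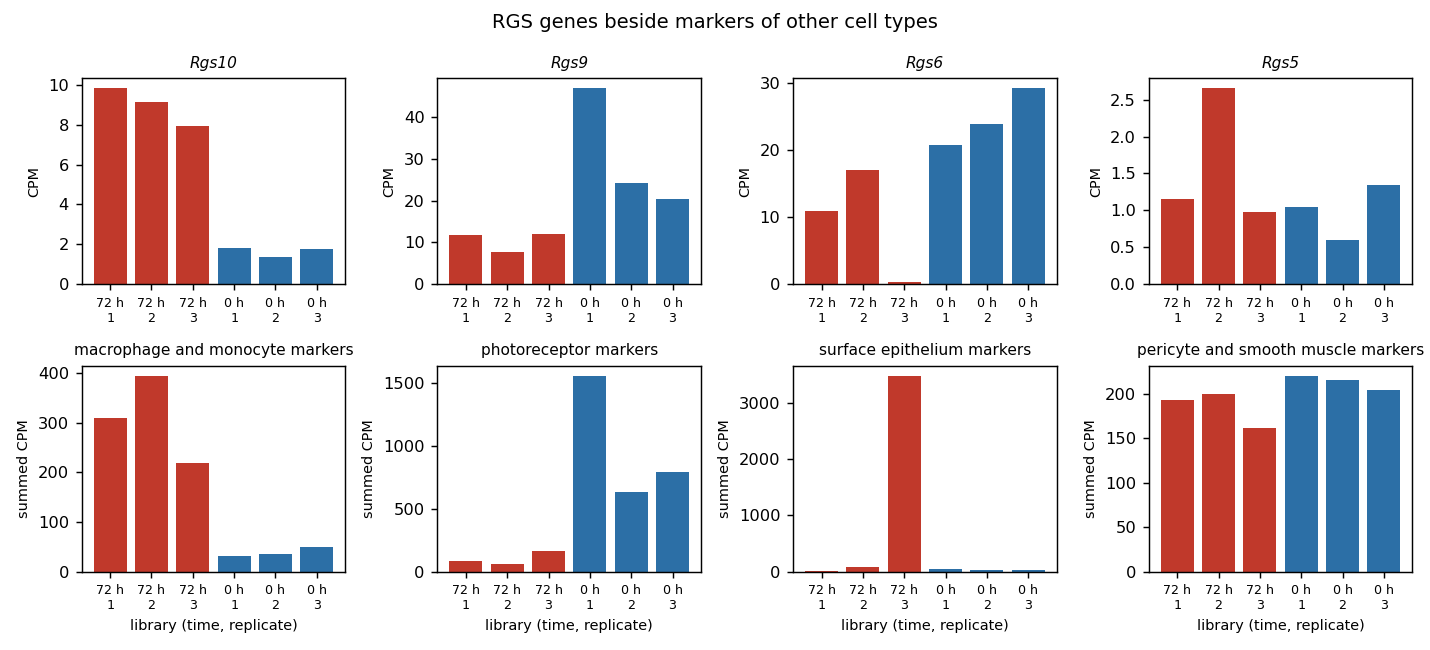
CPM of 4 RGS genes in each library (top) above the summed CPM of a marker list (bottom), 72 h libraries in red on the left and 0 h libraries in blue on the right. Macrophage and monocyte markers stand under Rgs10, photoreceptor markers under Rgs9, surface epithelium markers, high in 72 h replicate 3, under Rgs6, and pericyte and smooth muscle markers under Rgs5.

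The G protein subunits on which RGS proteins act changed in both directions. Of 15 tested alpha subunit genes, 3 rose and 5 fell, with a median log2 change of −0.43. Calls in both directions were common in the whole data set, with 21.0% of all tested genes called higher and 17.5% lower. Gna13, an alpha subunit that acts on the actin cytoskeleton, rose to 100.1 ± 7.70 CPM at 72 h, against 71.2 ± 3.01 CPM at 0 h (edgeR adjusted p = 0.0056), and the Go subunit Gnao1 fell to 22.3 ± 4.02 CPM, against 47.5 ± 3.94 CPM at 0 h (edgeR adjusted p = 0.00078). Without 0 h replicate 2 or 0 h replicate 3, 1 alpha subunit gene rose and 3 fell. Genes of rod photoreceptors were among the lower calls: Gnat1 had 94, 83 and 259 counts in 72 h replicates 1, 2 and 3, and 4120, 1650 and 2185 counts in 0 h replicates 1, 2 and 3. Gngt1, a gamma subunit gene, averaged 4.24 ± 3.54 CPM at 72 h and 23.03 ± 10.7 CPM at 0 h (SD, n = 3 each). Photoreceptor markers were lower in the same libraries. Without 72 h replicate 1 the calls of Gnat1 and Gngt1 were lost (edgeR adjusted p = 0.0523 and 0.0646). The Gnat1 call was also lost with a replicate block (edgeR adjusted p = 0.0602), and the Gngt1 call with no filter on low counts (edgeR adjusted p = 0.0631). Among the higher calls, Gna15 and Gngt2 had few counts at 0 h (11 and 17 over the group) and passed the filter only through the 72 h group, in which macrophage and monocyte markers were higher. The part of these cells in the subunit counts was not tested. Of 13 beta and gamma subunit genes, 4 rose and 4 fell, with a median of −0.01, and 2 rose without 72 h replicate 2, 72 h replicate 3 or any one 0 h library. Gng7, among the 4 that fell, had 5 counts at 72 h and 124 at 0 h, and passed the filter only through the 0 h group. Gng2 rose by a log2 change of 2.00 ± 0.17 (edgeR adjusted p = 1.7e-05), and Gng5 fell by 0.87 ± 0.13 (edgeR adjusted p = 6e-04). Gnb5, the partner of Rgs6, was lower at 72 h with a log2 change of −1.02 ± 0.28 (edgeR adjusted p = 0.016; 0.0519 without 72 h replicate 2 and 0.088 without 0 h replicate 1).

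Among 13 genes whose proteins hold a domain related to that of RGS proteins, 4 rose and 3 fell (median log2 change 0.16), and 2 rose without 0 h replicate 1 or 0 h replicate 2. For this list and the next 2, the share over all tested genes was 21.0% higher and 17.5% lower. Arhgef1, a guanine nucleotide exchange factor, rose by 1.18 ± 0.10, and the Wnt scaffold gene Axin2 fell by 1.58 ± 0.18 on the log2 scale (edgeR adjusted p = 2.1e-05 and 0.00011). Of 10 tested partners and other regulators, 2 rose and 4 fell (median −0.25), and 1 rose without 72 h replicate 2, 0 h replicate 1 or 0 h replicate 2. The arrestin genes went opposite ways, with log2 changes of 1.46 ± 0.20 for Arrb2 and −1.44 ± 0.11 for Arrb1 (edgeR adjusted p = 0.00038 and 8.6e-06). Of 7 genes that act below Gq, 4 rose and 2 fell (median 1.15), among them the inositol trisphosphate receptor genes Itpr3, at 1.60 ± 0.13, and Itpr1, at −1.02 ± 0.09 (edgeR adjusted p = 1.4e-05 and 2.5e-05). Plcb2, among the 4, had 345 counts at 72 h and 12 at 0 h, and passed the filter only through the 72 h group. Macrophage and monocyte markers were higher in that group, and their part in the level of Plcb2 was not tested.

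Of 22 tested receptors of wound and local mediators, 9 rose and 3 fell (median log2 change 0.78), and 5 fell without 72 h replicate 2 or 72 h replicate 3. Over all tested genes, 21.0% were called higher and 17.5% lower. Some of the 9 had few counts at 0 h and passed the filter only through the 72 h group. The protease-activated receptor gene F2rl1 rose to 98.0 ± 16.6 CPM at 72 h, against 2.52 ± 0.708 CPM at 0 h (log2 change 5.28 ± 0.23, edgeR adjusted p = 2.9e-07). The muscarinic receptor gene Chrm3, which couples to Gq, fell to 1.75 ± 1.24 CPM at 72 h, against 23.1 ± 3.82 CPM at 0 h (log2 change −3.72 ± 0.47, edgeR adjusted p = 0.00021; −4.37 without 72 h replicate 3). Chrm3 had 5, 14 and 25 counts in 72 h replicates 1, 2 and 3, so the 72 h group alone would not have passed the filter. Leukocyte chemoattractant receptors rose for 5 of 6 tested genes (median 5.27) and the other tested gene also had a positive log2 change, in the libraries in which macrophage markers were higher, and their part was not tested. Cxcr2 had 0 counts at 0 h and could only rise, and others, nearly without counts at 0 h, were in the test because of their 72 h libraries alone. Ccr2, a receptor of monocyte chemoattractants, had 294 counts at 72 h and 7 at 0 h (edgeR adjusted p = 0.0014). The log2 change of Ccr2 was 5.78 ± 0.96, 9.83 without 0 h replicate 1, which held all of its 0 h counts, and 5.19 without 0 h replicate 3.

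**Figure D5:**
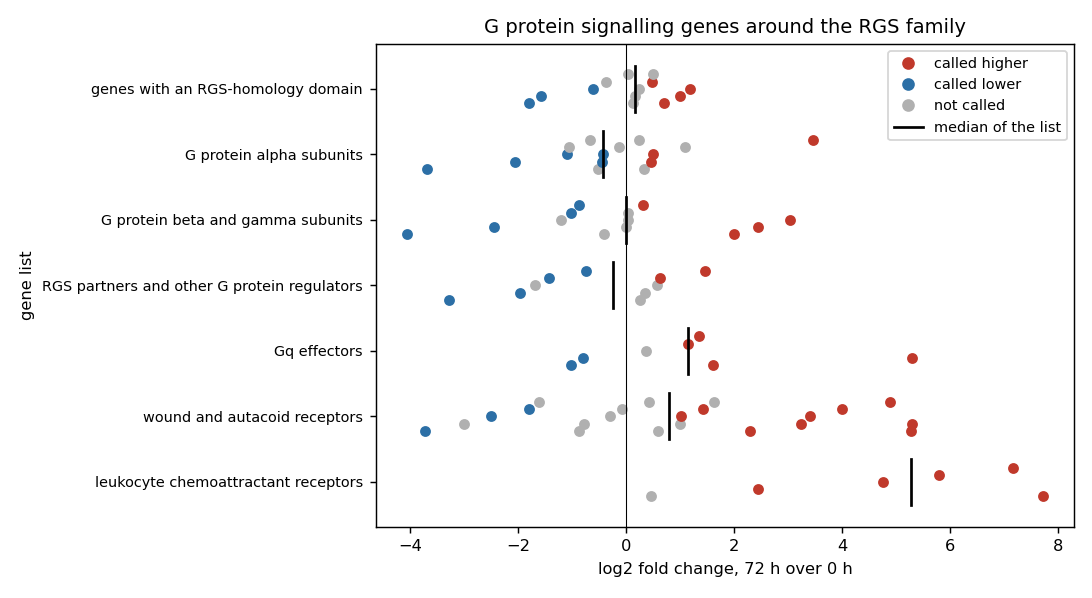
Log2 fold change, 72 h over 0 h, of each tested gene in 7 lists of G protein signalling genes, red where called higher, blue where called lower, grey otherwise, with a black line at the list's median. Called genes lie on both sides of 0 in 6 of the lists, and leukocyte chemoattractant receptors have none called lower.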

How the data were processed

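Each deposited file gives 1 library's raw counts by Ensembl gene, not normalized by the authors. The submitters' processing notes name HISAT2, HTSeq, edgeR and GRCm39; versions, annotation release and strand setting are not given in the sources used here. Per the labels' protocols, RNA came from the RNeasy Mini Kit and libraries from Takara's SMARTer Stranded Pico v2. The 5 lines of reads in no gene held 48.02% to 51.7% of reads at 72 h and 41.92% to 45.15% at 0 h and were left out. Symbols and exon lengths came from GENCODE M21 (GRCm38), by identifier, for 51947 and 51999 of 56940 genes, and 1 marker, Lim2, was not matched.

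Genes were kept by filterByExpr (minimum count 10, minimum total 15), scaled by TMM and tested with edgeR 4.0.16 in R 4.3.3 (quasi-likelihood, robust, prior count 0.125, time as the only term, two-sided, Benjamini-Hochberg over all 15407 genes, threshold 0.05). SE were derived from the log2 change and the F statistic. The code was tested on simulated data. Bounds use a floor of 3 counts over the group; reads carry PCR copies, so bounds and intervals cover counting error only. The members and gene lists were chosen with earlier results of these data known. All 10 members were named, every other RGS gene called with a mean of at least 1 CPM in a group, and from each further list the called gene with the smallest p in each direction, or the first 2 where all went one way, of which 1 is not reported here. Gnb5 was added as the partner of Rgs6. Rgs13, Rgs18, Rgs21, Cxcr2, Gnat1, Gngt1, Gna15, Gngt2, Gng7, Plcb2 and the marker genes named singly were added after their values were seen. Alternatives were DESeq2 1.42.0, limma voom (3.58.1), other scalings and filters, a replicate block and leaving out each library.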

Additional observations from a re-analysis of the deposited data

How the results depend on the processing

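Directions of the 4 listed genes past the threshold, Rgs4, Rgs10, Rgs12 and Rgs16, and their side of it were the same under all 13 alternatives. Among the other listed genes, Rgs1 passed with limma voom (log2 change 3.67) and without 0 h replicate 2 (6.65), Rgs6 and Rgs19 without 72 h replicate 3 (−0.81 and 0.92), and Rgs3, not past it in any, changed sign to 0.03 without 72 h replicate 3. Without 1 library, 1 to 2 listed genes were called lower (3 to 4 higher), 1 to 3 of the other RGS genes higher, 2 to 4 genes with a related domain higher, 1 to 2 alpha subunits higher and 3 to 5 lower, 2 to 3 beta and gamma subunits higher, 1 to 2 partners higher, and 3 to 5 wound receptors lower. Calls over the whole table moved too, to 2511 to 3646 higher and 1877 to 3265 lower, against 3230 and 2700 with all libraries. Under the other alternatives they were 2892 to 3461 higher and 2507 to 3104 lower.

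The stricter filter (30 counts in 3 libraries) left 1 other RGS gene, 5 wound receptors and 3 chemoattractant receptors higher, since it tests fewer genes. Wound receptors called lower numbered 5 with DESeq2 or no filter and 6 with limma voom. Partners called higher numbered 1 with upper quartile scaling or library size alone, and beta and gamma subunits called higher 2 with no filter. The cause was not tested.

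Same-numbered libraries of the 2 groups did not deviate together (correlations of −0.0425, 0.0683 and −0.00998), so the number was not taken as a pairing. With the number as a replicate block, 2921 genes were called higher and 2507 lower over the whole table, 3 alpha subunits lower and 2 beta and gamma subunits higher. It left the calls of the listed genes at 3 higher and 1 lower, and those of the other RGS genes at 2 higher, since Rgs17 was lost (edgeR adjusted p = 0.0718), as it was with limma voom.

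Depth limits Rgs1 (32 counts at 72 h and 7 at 0 h), Rgs5 (41 and 36) and the 72 h level of Rgs4.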
